A study of Homo sapiens with 12 samples.

Results

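In the pancreatic cancer line CFPAC1, 1175 regions at the ends of protein-coding genes carried an H3K27ac peak in all 8 libraries while none of the 4 libraries of the line MiaPaCa2 had a peak there. They were chosen by joining overlapping peaks of chromosomes 1 to 22 and X from all 12 libraries into 188535 loci and keeping those that met both conditions (overlap of at least 1 bp) and lay within 1000 bp of an end of a RefSeq protein-coding gene on GRCh38. These gene-end loci lie at 1133 of 19974 protein-coding genes (5.67%). Since presence of peaks in the 2 lines chose them, the contrast between the lines is described and not tested. Tests were made between groups of CFPAC1 libraries, which the choice did not compare; it did require a peak in every one of them, so a locus that any CFPAC1 group lacks cannot be among the 1175.

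Both lines are established from human pancreatic ductal adenocarcinoma. The 6 groups have 2 libraries each. They are bulk CFPAC1 given human IFN-β at 1000 U/ml over 2 h, CFPAC1 IRF1KO clones, CFPAC1 WT clones, bulk CFPAC1 left untreated, bulk MiaPaCa2 given the same IFN-β dose and time, and untreated bulk MiaPaCa2. The IRF1KO clones were infected with a lentiCRIPSv2 plasmid (as the labels spell it) that expresses wild-type Cas9 and an RNA guide to IRF1, and the WT clones with the plasmid as such. Both kinds were isolated by dilution, each library is 1 clone, and the labels name no IFN-β for them. CFPAC1 was grown in IMDM and MiaPaCa2 in DMEM, so medium and line cannot be told apart. Whether bulk libraries of the same group are separate cultures is not stated, so p-values measure the spread between these libraries, which may be technical. Peak lists held 59896 to 109861 peaks, read depth is unknown, and the sequencer of each library is not assigned. IRF1 had peaks in or within 1000 bp of its gene in all 12 libraries (6521 and 8848 bp in IRF1KO clones, 4046 and 3681 bp in WT clones), which does not check the knockout, because H3K27ac at a gene does not read its protein. All 10 ductal epithelial markers had a peak at a gene end in all 8 CFPAC1 libraries, and 6 of them in all 4 MiaPaCa2 libraries; EPCAM, CDH1 and KLF5 had none in MiaPaCa2. Of 6 mesenchymal markers, VIM, ZEB1 and SNAI2 had peaks in all 12 libraries, CDH2 in 8 CFPAC1 and 0 MiaPaCa2 libraries, FN1 in 7 CFPAC1 and 0 MiaPaCa2 libraries, and TWIST1 in none.

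H3K27ac is acetylation of lysine 27 on histone H3. It marks active promoters and enhancers and is laid down by the acetyltransferases p300 and CBP. A peak at a gene start usually accompanies an active promoter, whereas a peak at the far end of a gene may belong to an enhancer or to a neighbouring gene. In ductal epithelium, a layer of adherent secretory cells, such regions are found at genes of junctions, mucins and the transcription factors of the gut endoderm. Loss of these programmes accompanies a shift to a mesenchymal, poorly differentiated state.

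Promoter windows of 300 bases, from 250 before to 50 after the start, were read from RefSeq on GRCh38 for 5 of the genes. EPSTI1, PLEKHG7 and SLFN12 are shown because their loci changed with IFN-β, IFI44 as an interferon-stimulated gene, and SPINT1 as an epithelial gene of CFPAC1; they were chosen after their values were seen. EPSTI1 lies at chr13:42992192-42992491 on the minus strand, PLEKHG7 at chr12:92702739-92703038 on the plus strand, SLFN12 at chr17:35433125-35433424 on the minus strand, IFI44 at chr1:78649539-78649838 on the plus strand and SPINT1 at chr15:40843798-40844097 on the plus strand. Each is written 5′ to 3′ on the gene's strand, and capitals mark the motif matches named after the sequences.
EPSTI1: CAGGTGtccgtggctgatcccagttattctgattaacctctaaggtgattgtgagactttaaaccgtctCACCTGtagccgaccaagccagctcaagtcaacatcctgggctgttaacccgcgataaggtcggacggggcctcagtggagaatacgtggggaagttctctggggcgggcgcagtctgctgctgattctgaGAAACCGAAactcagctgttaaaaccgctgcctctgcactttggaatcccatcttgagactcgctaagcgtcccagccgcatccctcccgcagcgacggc
PLEKHG7: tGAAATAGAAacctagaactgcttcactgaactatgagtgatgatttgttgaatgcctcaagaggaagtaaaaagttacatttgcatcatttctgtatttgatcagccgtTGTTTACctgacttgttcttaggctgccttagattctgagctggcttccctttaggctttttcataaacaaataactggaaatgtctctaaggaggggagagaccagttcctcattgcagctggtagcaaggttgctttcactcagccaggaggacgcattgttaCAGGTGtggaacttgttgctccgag
SLFN12: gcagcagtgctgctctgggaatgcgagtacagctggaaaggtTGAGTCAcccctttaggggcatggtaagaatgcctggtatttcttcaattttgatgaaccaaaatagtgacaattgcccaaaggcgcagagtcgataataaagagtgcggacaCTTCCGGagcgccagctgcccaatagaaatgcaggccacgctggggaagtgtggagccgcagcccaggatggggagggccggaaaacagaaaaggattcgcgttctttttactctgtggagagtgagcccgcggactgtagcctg
IFI44: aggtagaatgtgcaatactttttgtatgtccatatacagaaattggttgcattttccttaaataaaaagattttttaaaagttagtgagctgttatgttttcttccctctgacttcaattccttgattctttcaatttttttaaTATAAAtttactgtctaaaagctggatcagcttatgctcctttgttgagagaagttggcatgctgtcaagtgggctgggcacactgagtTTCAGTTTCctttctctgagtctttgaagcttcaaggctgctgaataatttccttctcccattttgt
SPINT1: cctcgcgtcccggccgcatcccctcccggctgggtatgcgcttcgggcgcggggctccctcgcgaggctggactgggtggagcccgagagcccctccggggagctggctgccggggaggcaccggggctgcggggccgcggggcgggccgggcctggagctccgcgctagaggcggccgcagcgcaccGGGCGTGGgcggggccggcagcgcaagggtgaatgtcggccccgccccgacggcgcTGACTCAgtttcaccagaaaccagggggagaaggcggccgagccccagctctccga

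In EPSTI1 the capitals mark GAAACCGAA, a match to the interferon-stimulated response element (ISRE) searched as GAAANNGAA, at position -50 from the start, and E-boxes (CACCTG) at -250 and -181. PLEKHG7 has an ISRE match at -249, a FOXA match (TGTTTAC) at -140 and an E-box at 25. SLFN12 has an AP-1 match (TGANTCA) at -208 and an ETS match (CCGGAAG) at -95. IFI44 has an ISRE match at -17 and a TATA box match (TATAAA) at -106, and SPINT1 an AP-1 match at -6 and a KLF match (GGGNGTGG) at -62. A match on either strand is a description of the letters and not a site of binding. The windows range from no CpG at all (observed over expected 0.0 in IFI44) to 0.22 in PLEKHG7, 0.63 in SLFN12, 0.78 in EPSTI1 and 0.85 in SPINT1.

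Over all promoters, 865 of the 1133 genes have a RefSeq window and in 401 its start lies in one of the CFPAC1-only gene-end loci. These 401 promoters were poorer in CpG than promoters active in both lines. Their median CpG observed over expected was 0.605, against 0.85 for 6920 promoters in gene-end loci of all 12 libraries and 0.763 for all 15812 promoters. A ratio under 0.6 was found in 47.9% of them, against 11.3% and 34.2%. The 85 promoters of MiaPaCa2-only gene-end loci had a median of 0.617, with 49.4% under 0.6. AP-1 letters were in 11.5% of the 401, against 4.3% in loci of all 12 libraries and 5.8% of all promoters. E-box letters stood in 26.9%, against 17.1% and 19.9%. ETS letters were scarcer, at 8.7% against 25.3% and 14.2%, and TATA box letters commoner, at 11.2% against 5.2% and 9.6%. ISRE letters, which the response to interferon uses, were in 8.2%, against 7.1% and 7.1%. TEAD letters (GGAATGT) were in 4.0%, against 2.0% and 2.5%, and letters of the GATA factors, AGATAAG, in 2.5%, against 1.1% and 2.1%. The shares of KLF letters (19.7%, against 19.5% and 19.7%), FOXA (1.7%, against 2.4% and 2.6%), GRHL (AACCNGTT, 1.5%, against 1.4% and 1.6%) and HNF4 (CAAAGTCCA, 0.2%, against 0.2% and 0.3%) lay closer together. In the 85 MiaPaCa2-only promoters ETS letters were in 4.7%, so they were scarce there too. AP-1 and TATA box letters were each in 4.7% of those 85, and E-box letters in 18.8%. Motifs were searched on both strands and can overlap, and these shares are not tested.

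The CFPAC1-only loci sat at gene starts less than the loci of both lines did. Gene strand is known for 882 of the 1175, and 66.44% of these were at a start only, 27.1% at a terminus only and 6.46% at both. Gene-end loci of all 12 libraries were at 86.25% starts only and 3.49% termini only, and MiaPaCa2-only gene-end loci at 56.82% and 37.05%. The loci had a median width of 2021 bp, against 986 bp for MiaPaCa2-only gene-end loci and 2492 bp for gene-end loci of all 12 libraries; 136 were over 5000 bp wide. A locus joins peaks of 8, 4 and 12 libraries in these parts, and width can grow with that number. CFPAC1-only loci away from gene ends, also joined from 8 libraries, had a median width of 2145 bp. For 240 genes with a CFPAC1-only locus at the terminus only, the start had peaks in all 4 MiaPaCa2 libraries in 144 and in none in 69 (28.7%). For 557 genes with one at the start only, 368 (66.1%) had no MiaPaCa2 peak anywhere in the gene or within 1000 bp of it, and 100 (18.0%) had peaks of all 4 libraries somewhere.

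**Figure D1:**
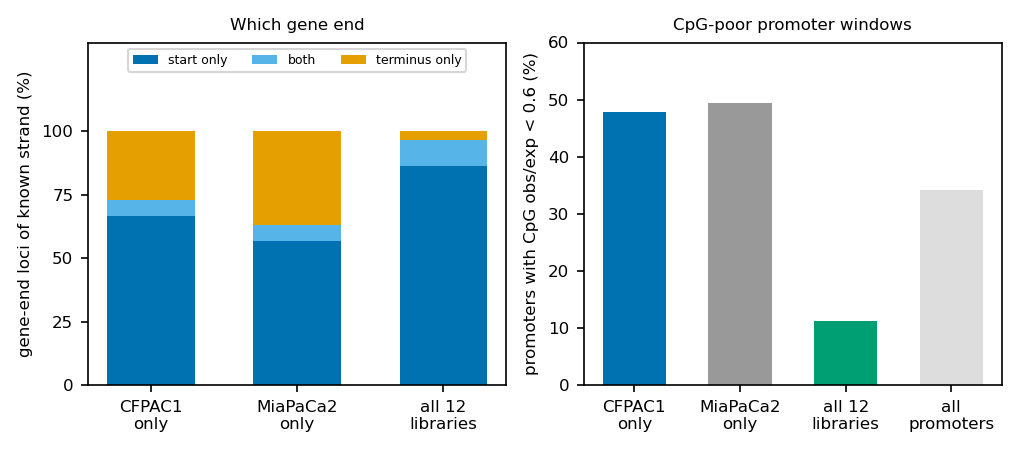
Left, share (%) of gene-end loci of known strand that lie at a gene start only, a terminus only or both, for CFPAC1-only, MiaPaCa2-only and all-library loci; right, share (%) of promoter windows with CpG observed over expected under 0.6. Terminus-only loci made up 27.1% in CFPAC1, 37.05% in MiaPaCa2 and 3.49% in loci of all 12 libraries; CpG-poor windows made up 47.9%, 49.4% and 11.3%, against 34.2% of all promoters.

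Coverage, the bp of a locus that lie under peaks, averaged 1376.6 bp at the median locus over the 8 CFPAC1 libraries (quartiles 814 and 2375.5, range 255.8 to 18987.1); 74 loci averaged over 5000 bp and 75 under 500 bp. The widest lay at ANXA3, an annexin that binds membrane phospholipids (chr4:78549119-78571082). It had 16833 and 18967 bp with IFN-β, 20025 and 13329 bp in IRF1KO clones, 18274 and 21158 bp in WT clones and 21449 and 21862 bp untreated. Both untreated libraries lay above the other 6, whose 3 groups overlapped. KLF5, a transcription factor of epithelial progenitors, had 17111 and 17309 bp with IFN-β, 14352 and 16285 bp in IRF1KO clones, 18069 and 16357 bp in WT clones and 17895 and 17627 bp untreated, at its terminus; the nearest MiaPaCa2 peak was 0.3 kb away. MEIS1, a homeobox factor, varied least of the 10 widest, between 14117 and 14528 bp. The others were C1orf116 with PFKFB2, RND3 (a small GTPase that inhibits ROCK), ADGRF1 (an adhesion receptor), KYNU (kynureninase), B4GALT4 with UPK1B (a uroplakin), ALCAM (an adhesion molecule) and MUSK (a receptor tyrosine kinase of the neuromuscular junction). MUSK spread widest, with 17287 and 18990 bp with IFN-β, 8479 and 3655 bp in IRF1KO clones, 12828 and 8211 bp in WT clones and 16311 and 19467 bp untreated. Both bulk groups lay above both clone groups at MUSK, while KO and WT clones overlapped.

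**Figure D2:**
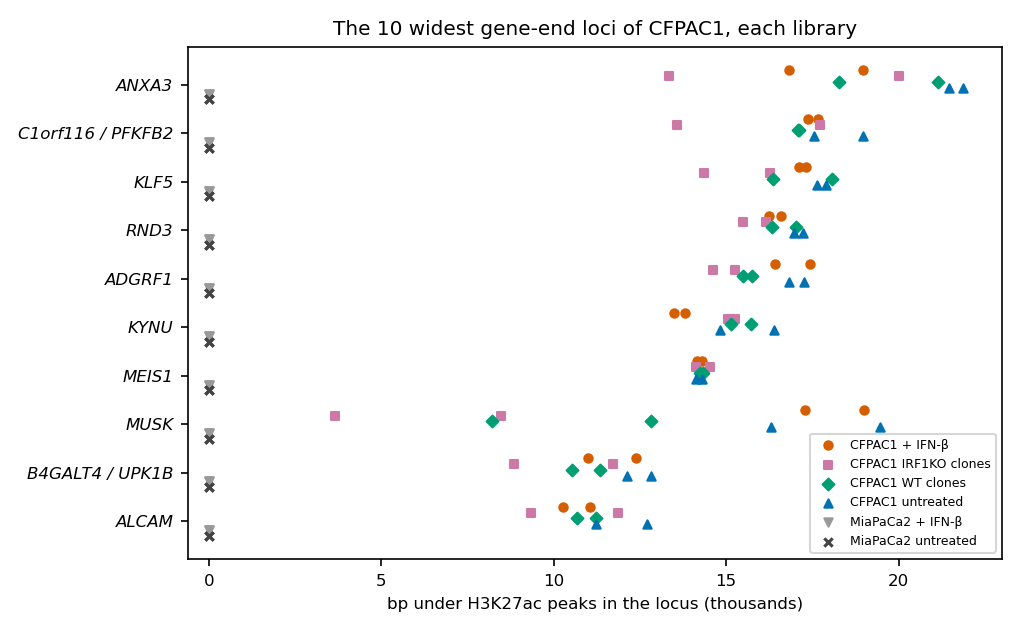
The bp under H3K27ac peaks (x axis, in units of 1000 bp) in each of the 12 libraries at the 10 widest CFPAC1-only gene-end loci, by mean over the 8 CFPAC1 libraries; each point is 1 library and rows run from the widest down. MiaPaCa2 libraries are at 0 by the choice of loci, MEIS1 lies between 14117 and 14528 bp in CFPAC1, and MUSK is lower in all 4 clones (3655 to 12828 bp) than in the 4 bulk libraries (16311 to 19467 bp).

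Among 13 gene lists, drawn up with earlier results of these data known, the loci were common at epithelial genes. They lay at 12 of 34 adhesion and junction genes (35.3%), among them CDH1, CDH3, EPCAM, CLDN1, CLDN3, MARVELD3, PKP2, PPL, CGN, CRB3 and ESRP1. The PKP2 locus lay 0.5 kb from a MiaPaCa2 peak and the others of this list 2.16 kb or more away. Those at CLDN1 and CGN were at a terminus. EPCAM, an epithelial adhesion molecule, had 3557 and 3680 bp with IFN-β, 3328 and 3203 bp in IRF1KO clones, 4083 and 3344 bp in WT clones and 3849 and 4042 bp untreated. PPL, periplakin of the cornified envelope, had at the wider of its loci 2517 and 1660 bp with IFN-β, 2835 and 2790 bp in IRF1KO clones, 1840 and 2586 bp in WT clones and 2360 and 2229 bp untreated, and all groups but the IRF1KO clones overlapped; UBN1 shares that locus. None of the 34 genes had a MiaPaCa2-only gene-end locus, and 16 (47.1%) had one of all 12 libraries. Over all genes the shares were 5.67% for CFPAC1-only loci, 2.46% for MiaPaCa2-only loci and 52.64% for loci of all 12 libraries. Differences between lists and all genes were not tested. Only 1 of the 16 keratin genes listed, KRT23, was at a CFPAC1-only locus. The list leaves out KRT39, which had a CFPAC1-only locus at its terminus with a mean of 9678.9 bp.

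Transcription factors of epithelium and endoderm had such loci at 10 of 32 genes (31.2%), among them KLF5, GRHL2, GRHL3, FOXA1, FOXA2, HNF4A and PDX1. The loci at KLF5, PDX1 and FOXA1 lay 0.3, 0.34 and 0.68 kb from a MiaPaCa2 peak, and the rest of the 10 at least 4.92 kb away. The KLF5 locus was at the terminus, and that at GRHL3 was 985 bp from a gene end. GRHL2, a grainyhead factor that maintains epithelial junctions, had 5151 and 5166 bp with IFN-β, 4830 and 299 bp in IRF1KO clones, 5087 and 5107 bp in WT clones and 5156 and 5128 bp untreated, so IRF1KO clone 2 alone was far below the rest. The list had 2 genes with a MiaPaCa2-only locus, TP63 and BHLHA15.

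Mucins and their glycosylation enzymes had CFPAC1-only loci at 9 of 27 genes (33.3%), among them MUC4, MUC5AC, GALNT3, GALNT5, TFF1 and TFF2. MUC4, a membrane mucin, had 4925 and 4692 bp with IFN-β, 3872 and 3575 bp in IRF1KO clones, 4193 and 3523 bp in WT clones and 4767 and 3464 bp untreated. GALNT5, an enzyme that begins O-glycan chains, ranged from 5098 to 6137 bp, with the IRF1KO clones lowest. MUC12 and MUC17 had MiaPaCa2-only loci. CEACAM and classical tumour markers had CFPAC1-only loci at 9 of 25 genes (36.0%) and a MiaPaCa2-only locus at TSPAN1, with ANXA10, AGR2, TSPAN8 and VSIG2 the widest CFPAC1-only loci. ANXA10, an annexin of gastric epithelium, had 10513 and 10021 bp with IFN-β, 8529 and 9476 bp in IRF1KO clones, 9467 and 9687 bp in WT clones and 10913 and 11651 bp untreated. Membrane serine proteases and their inhibitors had CFPAC1-only loci at 6 of 16 genes (37.5%) and a MiaPaCa2-only locus at KLK7. SPINT1, a Kunitz inhibitor of matriptase, ranged at the wider of its 2 loci from 4171 to 4573 bp, and ST14, matriptase itself, from 500 bp in IRF1KO clone 2 to 2307 bp.

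Mesenchymal genes had CFPAC1-only loci at 2 of 21 (9.5%), CDH2 (1110 to 2220 bp) and TWIST2 (370 to 1155 bp). Interferon-stimulated genes had them at 2 of 48 (4.2%), IFI44 and APOL1, while 31 of 48 had a gene-end locus of all 12 libraries. Antigen presentation genes had them at 2 of 17 (11.8%), HLA-F and CD74, and lipid and bile acid genes at 3 of 32 (9.4%), ACSL5, CPT1A and CYP3A5. Glutathione and NRF2 genes had them at 3 of 19 (15.8%), GPX2, GPX1 and AKR1B10, and glycolysis and hexosamine genes at 0 of 19. Markers of fibroblasts, immune and endothelial cells had them at 1 of 14 (7.1%), CD3E, with 939 to 1389 bp. The loci at APOL1, TWIST2, GPX1 and CPT1A lay 0.1, 0.18, 0.19 and 0.4 kb from a MiaPaCa2 peak. The other loci of these lists were 15.92 kb or more away.

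**Figure D3:**
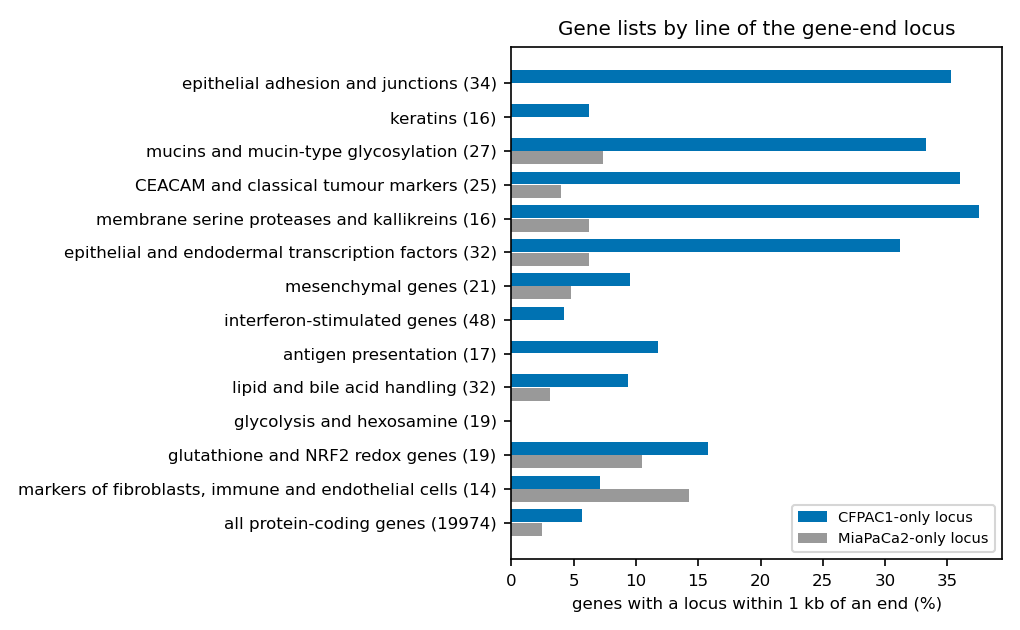
Share (%, x axis) of the genes of each list with a CFPAC1-only locus (upper bar) or a MiaPaCa2-only locus (lower bar) within 1000 bp of a gene end; the number of genes is in brackets. The 5 epithelial lists other than keratins reach 31.2% to 37.5% for CFPAC1, against 5.67% of all protein-coding genes, and 0 of 19 glycolysis and hexosamine genes had either. The lists were drawn up with earlier results of these data known, and the shares were not tested.

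The loci were often far from any MiaPaCa2 peak: the median distance was 30.3 kb (quartiles 6.68 and 129.4 kb), 125 lay within 1000 bp and 186 (15.8%) beyond 250000 bp. MiaPaCa2-only gene-end loci lay at a median of 3.45 kb from a CFPAC1 peak, with 0.4% beyond 250000 bp, measured to peaks of 8 libraries and not 4. CFPAC1-only loci away from gene ends had a median of 38.32 kb to a MiaPaCa2 peak, with 16.7% beyond 250000 bp. The farthest were DIAPH2 (a formin, 4132.32 kb), DMRTA1 (3036.52 kb) and CDKN2B (an inhibitor of CDK4 and CDK6, 2596.59 kb). The longest stretches without a MiaPaCa2 peak that held such loci were 14.77 Mb on chromosome X, with 5, and 7.84 Mb on chromosome 21, with 1. On chromosome 9, from 19409826 to 26890883, no MiaPaCa2 library had a peak over 7.48 Mb, and 9 of the loci lay there, at MLLT3, KLHL9, MTAP, CDKN2A, CDKN2B, DMRTA1 and TUSC1. The widest of them, at CDKN2A, which encodes cell-cycle inhibitors and was named after its value was seen, covered 7674 and 8166 bp with IFN-β, 7190 and 8528 bp in IRF1KO clones, 7677 and 7595 bp in WT clones and 8364 and 8658 bp untreated. Of all CFPAC1 loci in that stretch, 45 had a peak in all 8 CFPAC1 libraries. In peak lists a lack of acetylation and a lack of the DNA cannot be told apart.

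IFN-β for 2 h asked which acetylated regions respond to a type I interferon. At the CFPAC1-only gene-end loci 5 were higher and 1 lower in IFN-β libraries than in untreated libraries (limma on log2 of covered bp plus 500, 84035 loci tested, Benjamini-Hochberg adjusted p under 0.05). The 5 are 0.426% of the loci, against 2.01% of all loci tested and 0.426% of loci with a peak in all 8 CFPAC1 libraries; the 1 is 0.0851%, against 0.228% and 0.262%. Without centring the libraries 4 were higher and 19 lower, with a median change of -0.15 over all loci in place of 0.01, and with quantile normalization 4 and 7. Of all 84035 loci tested, 4055 were called without centring and 3316 with quantile normalization, against 1879 in the main fit. IFN-β libraries held fewer peaks (85948 and 85658) than untreated ones (97460 and 102857), and the part of this in the result was not tested. All 6 calls were lost when any 1 of the 4 libraries was left out, and 0 were made with only the 4 libraries in the fit.

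EPSTI1, an interferon-induced gene, had 3676 and 3417 bp in IFN-β libraries and 1030 and 1275 bp untreated (log2 change 1.46 ± 0.15 SE, limma adjusted p = 0.0215). Its IRF1KO clones had 1155 and 955 bp and its WT clones 1701 and 1436 bp, so both IFN-β libraries stood above every other CFPAC1 library. PLEKHG7, a pleckstrin domain exchange factor, had 4991 and 3044 bp in IFN-β libraries and 1251 and 1035 bp untreated (1.59 ± 0.26, adjusted p = 0.0327). Its IFN-β libraries differed from each other by more than its untreated libraries did. ATP10A, a phospholipid flippase, had 2710 and 1622 bp in IFN-β libraries and 691 and 742 bp untreated (1.26 ± 0.23, adjusted p = 0.0404). SLFN12 and SLFN13, Schlafen genes that share a locus, had 3740 and 2881 bp in IFN-β libraries and 1597 and 2043 bp untreated (0.87 ± 0.16, adjusted p = 0.043). At each of these 4 loci the IFN-β and untreated libraries did not overlap, which their choice as called loci favours. At SLFN12 and SLFN13, though, IRF1KO clone 2 had 2882 bp. ANKRD46, an ankyrin repeat gene, was lower, with 476 and 216 bp in IFN-β libraries and 1479 and 1784 bp untreated (-1.19 ± 0.19, adjusted p = 0.0313).

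IFI44, which encodes an antiviral cytoplasmic protein, had 4323 and 4032 bp in IFN-β libraries and 3318 and 3615 bp untreated, without overlap (0.40 ± 0.11, limma adjusted p = 0.15). HLA-F, a non-classical class I antigen, had 1524 and 1604 bp in IFN-β libraries and 1205 and 1135 bp untreated (0.47 ± 0.15, adjusted p = 0.212). Neither passed. Over all 1175 the median change was 0.003 on the log2 scale and 597 were positive. No locus of a gene list was called with IFN-β; the smallest adjusted p in the lists was 0.141, at CPT1A (carnitine palmitoyltransferase).

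**Figure D4:**
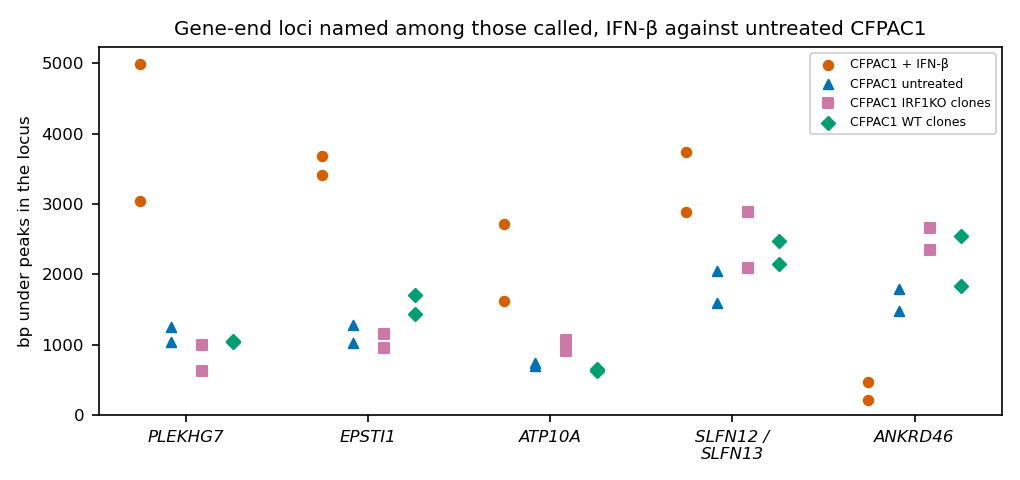
The bp under peaks (y axis) in each CFPAC1 library at 5 of the 6 loci called between IFN-β and untreated CFPAC1; each point is 1 library and the IFN-β group is drawn left of the untreated group, with clones beside them. IFN-β libraries lie above all others at EPSTI1, PLEKHG7 and ATP10A, and at 476 and 216 bp, below all others, at ANKRD46.

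IRF1KO against WT clones asked what changes without IRF1, which binds ISRE letters and activates genes in answer to interferons, when no interferon is added. No gene-end locus passed (0 of 1175, by limma); of all loci tested 0.0762% did, and of loci with a peak in all 8 CFPAC1 libraries 0.0567%. At an unadjusted p under 0.05 there were 141 (12%), against 12.1% of all loci and 9.4% of loci with a peak in all 8 CFPAC1 libraries. The smallest adjusted p was at KCNK1, a potassium channel, with 778 and 837 bp in IRF1KO clones and 2243 and 2396 bp in WT clones (-1.14 ± 0.14, adjusted p = 0.0561). FAM83B, a scaffold of growth factor signalling, had 2808 and 2303 bp in IRF1KO clones and 5194 and 5181 bp in WT clones (-0.93 ± 0.13, adjusted p = 0.0691). GABRP, a GABA receptor subunit, had 1061 and 2478 bp in IRF1KO clones and 6050 and 6708 bp in WT clones (-1.70 ± 0.27, adjusted p = 0.0902). The groups did not overlap at these 3, which their choice by smallest p favours. At GABRP bulk CFPAC1 lay above all clones, with 11045 and 9611 bp untreated and 10493 and 8030 bp with IFN-β. At KCNK1 and FAM83B the bulk libraries lay above both IRF1KO clones. In the other direction SLC43A3, a nucleobase transporter, had 4283 and 3558 bp in IRF1KO clones and 1507 and 1265 bp in WT clones (1.20 ± 0.26, adjusted p = 0.133). ETS1 and FAM24B were next, with limma adjusted p = 0.139 and 0.142. At ETS1 the WT clones were the low group, with 321 and 363 bp. IRF1KO clones had 1115 and 1781 bp there and untreated bulk CFPAC1 1011 and 1510 bp, so the knockout clones overlapped untreated bulk.

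**Figure D5:**
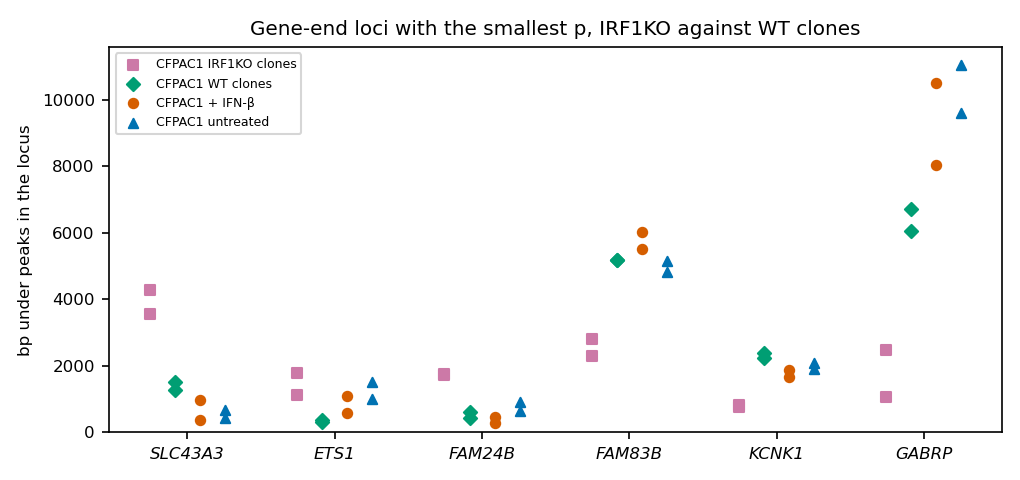
The bp under peaks (y axis) in each CFPAC1 library at the 6 loci of smallest p between IRF1KO and WT clones, 3 in each direction; each point is 1 library, IRF1KO clones left of WT clones. The clone groups do not overlap at any of the 6 (KCNK1 778 and 837 bp against 2243 and 2396 bp). Their choice by smallest p favours this, and no locus passed the adjusted threshold.

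The count changed with the knockout clone left out. Without IRF1KO clone 1, 55 loci were called lower (4.68%, against 1.39% of all loci tested), and without IRF1KO clone 2, 5 (0.426%, against 0.174%); GABRP alone was in both sets. Each of these fits has 1 knockout clone, which is assumed to vary like the libraries of the other groups, so the calls describe that clone and not the knockout. Shares among loci with a peak in all 8 CFPAC1 libraries were not computed for these fits. An excess particular to the gene-end loci is therefore not shown. Loci where every other CFPAC1 library had over 4 times the bp of 1 library were counted: IRF1KO clone 2 was that library at 9 loci, IRF1KO clone 1 at 3 (ACADL, ATAD1 and SPACA1) and IFN-β library 2 at 1. The 9 lay at ARHGEF38, ATP2C2, CHN2, ESRP1, GPR141, GRHL2, NFATC4, SLC30A2 and ZBED2 and were picked after their values were seen. GRHL2 had 299 bp in IRF1KO clone 2 and 4830 to 5166 bp in the other 7 CFPAC1 libraries, and ESRP1, a splicing regulator of epithelial cells, 500 bp in that clone and 4036 to 4833 bp in the other 7 libraries. Both lie on chromosome 8, the lowest chromosome of that clone. There it was below the mean of the other 7 at 74.1% of 54 gene-end loci (median log2 ratio -0.364), and the cause was not tested. That clone had the most peaks of all, 109861.

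WT clones against untreated bulk CFPAC1 compared cloned cells infected with the plasmid with bulk cells. Cloning, the plasmid and any difference in culture or library preparation cannot be told apart here. No gene-end locus was called (0 of 1175, against 0.00238% of all loci), with 51 (4.34%) at an unadjusted p under 0.05, against 8.25% of all loci and 4.9% of loci with a peak in all 8 CFPAC1 libraries. The smallest adjusted p was 0.332. KRT23, a keratin, had at the wider of its 2 loci 2420 and 2604 bp in WT clones and 4744 and 5142 bp untreated (-0.75 ± 0.16, limma adjusted p = 0.332), and UGCG, glucosylceramide synthase, 1993 and 1834 bp in WT clones and 4980 and 4472 bp untreated (-1.01 ± 0.23, adjusted p = 0.332). In the other direction ITIH4 had 1409 and 1728 bp in WT clones and 584 and 896 bp untreated (0.85 ± 0.21, adjusted p = 0.338). NRG3, MOGAT1 and RNF19A were the others of smallest p. With 2 libraries against 2, an exact permutation test cannot go below p = 0.333, so calls here rest on the spread that limma pools over groups and loci.

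Of gene-end loci just outside the choice, 209 had a peak in all 8 CFPAC1 and exactly 1 MiaPaCa2 library and 315 in exactly 7 CFPAC1 and no MiaPaCa2 library. The loci nearest inside the 1000 bp limit lay at RASAL1 and MAP3K21 (998 bp each) and HTR1D (996 bp), and those nearest outside at ST6GALNAC1 (1007 bp), EPB41L5 (1009 bp) and LOC124902897 (1011 bp). Besides the 1175, 10405 loci with the same pattern of libraries lay farther from gene ends.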

How the data were processed

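H3K27ac ChIP-seq was deposited as 1 narrowPeak list per library (12). Per the submitters' processing notes, Trimmomatic 0.38, Bowtie2 2.2.6, SAMtools and MACS2 2.1.0.20150731 were used with GRCh38; the control library and filters are not given in the sources used here. The authors deposited for each peak a fold ratio, a -log10 p and a -log10 q; the deposited score was not used. The smallest -log10 q was 1.3 to 1.37, and read depth is unknown, so no interval that needs counts was computed. Covered bp was the sum of bp of a locus under peaks of a library. It measures extent, not height. limma 3.58.1 (R 4.3.3) was fitted with a trended prior to log2(covered bp + 500), centred on each library's mean, over 8 CFPAC1 libraries in 4 groups (4 residual degrees of freedom) and 84035 loci with peaks in at least 2 of them; all 1175 gene-end loci passed that filter by their choice. Adjusted p-values are Benjamini-Hochberg over all loci. The limma step was tested on simulated data. Strand came from RefSeq promoter windows (15812 of 19974 genes). Tables were made with Python 3.11.15, pandas 2.3.3 and numpy 2.4.6.

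Named loci were the 10 widest, those called (up to 5 per direction) or the 3 of smallest p, up to 4 per gene list, the 3 farthest from a MiaPaCa2 peak and those nearest the distance limit. Loci, gene lists and tests were chosen with earlier results of these data known. A few loci that this rule names, and 1 motif of those searched, are not reported here.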

Additional observations from a re-analysis of the deposited data

How the results depend on the processing

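The number of gene-end loci stayed within 883 to 1414 over overlap, peak threshold, peak number and distance. Without each single library it was 1180 to 1274. With a -log10 q of at least 5 there were 1005, and 851 of the 1175 were overlapped by them. The count called with IFN-β, 6, became 0 among loci with a peak in all 8 CFPAC1 libraries (fewer loci tested), 0 with only the 4 libraries of the comparison (fewer libraries), 0 with a replicate block and 0 without each single library, against 23 without centring, 11 with quantile normalization, 29 with all 12 libraries, 12 with a -log10 q of at least 5 and 15 with the same number of peaks. The count for IRF1KO against WT clones, 0, became 3 without the filter, 28 with all 12 libraries, 1 with the same number of peaks and 0 to 55 without each single library (5 without IRF1KO clone 2); the fit of all 12 includes MiaPaCa2 libraries, which are at 0 in these loci and add no spread. The count for WT clones against untreated stayed 0 under every setting run. Deviations of same-numbered libraries correlated by 0.228 between IFN-β and untreated CFPAC1 and by -0.0936 to 0.0471 between the other groups, and nothing in the labels pairs the numbers; the replicate block, which took the IFN-β count to 0, left the other 2 counts at 0. Of 252 alternatives for 18 named results, 190 kept their side of the threshold, 49 lost it, 13 crossed into it and 0 reversed. Fewer loci tested and fewer libraries describe those settings only. Calls over all loci tested changed too. With IFN-β they were 1879 of 84035 in the main fit, 4055 without centring, 3316 with quantile normalization and 5363 with all 12 libraries. They were 1738 of 60556 with a -log10 q of at least 5 and 1945 of 57612 with the same number of peaks. For IRF1KO against WT clones they were 64 of 84035 in the main fit and 3708 with all 12 libraries. They were 294 of 135805 without the filter and 305 of 57612 with the same number of peaks. The cause of the changes in these counts was not tested.

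Covered bp shows how far peaks extend, so a change in height alone would not be seen. Depth is unknown and 2 libraries a group limit every test.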

Other observations

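A few genes held several CFPAC1-only gene-end loci, picked here after their values were seen. NHS, an actin regulator on chromosome X, had 4, between 17374072 and 17737116. SOX2, a factor of stem and foregut progenitor cells, had 3 over its short span (chromosome 3, 181709630 to 181720318), with a summed mean of 10134 bp. The widest of them had 7649 and 7619 bp with IFN-β, 7710 and 7656 bp in IRF1KO clones, 7916 and 7990 bp in WT clones and 7756 and 7867 bp untreated, and lay 722039 bp from the nearest MiaPaCa2 peak. B3GALT5, a galactosyltransferase of type 1 glycan chains, had 3 loci with a summed mean of 11968 bp.

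The loci were spread unevenly over chromosomes. Chromosome 19 held 2.72% of the CFPAC1-only gene-end loci, against 18.26% of MiaPaCa2-only ones, 7.15% of those of all 12 libraries and 7.26% of all gene ends.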
